A study of Mus musculus with 19 samples.

Results

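The genes described here are 10 transcription factors that divide the neural tube into bands of progenitor cells between its back (dorsal) and belly (ventral) sides: Pax3, Pax7, Prdm13, Pax6, Irx3, Dbx1, Dbx2, Prdm12, Nkx6-1 and Olig2. They were taken by name from a table of 38424 gene or locus entries, and all 10 were found. The 19 libraries of polyadenylated RNA came from mouse embryonic stem cells with a short hairpin (sh) against a long non-coding RNA, against the coding gene EVX1, or against a control sequence. In the 7 libraries that matter most here, 46c cells had been kept in N2B27, a serum-free medium that favours neural fate, with 5 nM retinoic acid for 4 days. They comprised 2 shNr2f1as, 1 shSox21os and 2 shPou3f3os libraries, and 2 control libraries shared by these 3 knockdowns. Each of the 3 targets is a non-coding RNA made beside a developmental gene (Nr2f1, Sox21 or Pou3f3). The other 12 libraries serve as background. They came from cells deprived of LIF, a cytokine that holds stem cells in the undifferentiated state: 2 shEvx1as libraries and 1 control in CJ7 cells at day 4, 2 shEVX1 and 1 control at day 4, 1 shLhx1os and 1 control at day 6, and 2 shFendrr and 2 controls at day 5, all in CJ9 cells except the first set. The labels give the strain 129S4/SvJae for the LIF-withdrawal cells and only the line name for 46c, and leave unstated whether libraries with the same group name come from separate cultures or separate hairpins.

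In the neural tube, Sonic hedgehog from the ventral midline and BMP and Wnt proteins from the dorsal midline set up these bands, and retinoic acid promotes the factors of the intermediate region. Neighbouring bands are kept apart because several of the factors repress each other, and each combination of factors leads to its own class of interneuron or motor neuron. Pax6 appears early and broadly in the neural plate, so it also serves as a marker of neural conversion in culture.

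Values are FPKM, fragment counts divided by transcript length and by the number of fragments mapped in that library, so levels of different genes can be compared. Library totals lay between 595720 and 644269 FPKM in the 7 retinoic acid libraries. Absolute depth is unknown from these values, so counting intervals were not computed. Steps between low values put the depth of these libraries within 0.865 to 1.05 of control replicate 1, a value that only 23.3 to 25.6% of the loci compared met within 0.02 on the log2 scale. The cultures expressed the neural marker Sox1. This early neural plate factor lay between 83.3 and 111 FPKM in the 5 knockdown libraries and at 94.1 and 83.7 FPKM in the controls, and never passed 2.91 FPKM in LIF withdrawal. Pou5f1 (Oct4), a pluripotency factor, was at 92.1 and 194 FPKM in shNr2f1as, 180 FPKM in shSox21os and 47.2 and 44.6 FPKM in shPou3f3os, against 43.5 and 282 FPKM in the controls. The controls thus stand at the lowest and the highest Pou5f1 level of the 7 libraries, and calls that are lost without one of them are given as such below. Of the targeted RNAs, Pou3f3os was found as the entry 2610017I09Rik, a RefSeq synonym of it, and no entry carries the name Nr2f1as or Sox21os, so those targets are not checked here. Pou3f3os was at 2.40 and 4.13 FPKM in shPou3f3os, 2.97 and 0.679 FPKM in shNr2f1as and 1.54 FPKM in shSox21os, against 5.20 and 1.98 FPKM in the controls, so the library labels of shPou3f3os were not borne out by a lower level clear of the controls. Nr2f1, the neighbour of the Nr2f1as target, was at 9.35 and 4.94 FPKM in shNr2f1as, 5.10 FPKM in shSox21os and 15.2 and 12.6 FPKM in shPou3f3os, against 21.4 and 16.4 FPKM in the controls, so its lower level was not limited to shNr2f1as.

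Dbx1, Prdm12 and Prdm13 carry the main result below, and the bases just before their transcription starts are shown so that their promoters can be read beside the values. The sequences are RefSeq's for GRCm38.p6, each the 250 bases before the start, 5′ to 3′ in the direction of the gene, at chr7:49636836-49637085 (minus strand) for Dbx1, chr2:31639787-31640036 (plus strand) for Prdm12 and chr4:21685964-21686213 (minus strand) for Prdm13. Capitals mark every match, on either strand, to 1 of 8 motifs: AGGTCA, which is a half-site for nuclear receptors, the class of the retinoic acid receptors and of Nr2f1, the half-site variant AGTTCA, the half-site variant GGGTCA, the homeodomain core TAATTA, the Sox factor motif AACAATG, the proneural E-box CAGCTG, the GC box given as GGGCGG and the TATA box given as TATAAA.
Dbx1: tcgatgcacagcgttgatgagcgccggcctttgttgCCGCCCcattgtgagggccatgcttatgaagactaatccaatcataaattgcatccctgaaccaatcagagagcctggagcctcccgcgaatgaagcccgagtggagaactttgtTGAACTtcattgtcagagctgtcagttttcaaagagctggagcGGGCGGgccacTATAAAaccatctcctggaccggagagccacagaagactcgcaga
Prdm12: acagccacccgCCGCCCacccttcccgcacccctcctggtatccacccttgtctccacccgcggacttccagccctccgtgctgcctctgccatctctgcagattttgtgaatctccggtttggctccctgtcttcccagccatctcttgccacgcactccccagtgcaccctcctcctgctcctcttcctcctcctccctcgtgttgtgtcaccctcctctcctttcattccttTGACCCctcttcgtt
Prdm13: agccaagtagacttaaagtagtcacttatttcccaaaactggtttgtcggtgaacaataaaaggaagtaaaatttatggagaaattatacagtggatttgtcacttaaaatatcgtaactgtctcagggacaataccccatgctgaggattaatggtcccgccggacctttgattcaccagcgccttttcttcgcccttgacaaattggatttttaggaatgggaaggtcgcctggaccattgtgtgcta
Dbx1 had 1 AGTTCA, 2 GGGCGG and 1 TATAAA, Prdm12 had 1 GGGTCA and 1 GGGCGG, and Prdm13 had none of the 8 in this window. Matches did not overlap each other. Among 32851 RefSeq promoter windows of this length, 11.8% held AGTTCA, 11.6% GGGTCA, 14.0% AGGTCA, 32.7% GGGCGG, 12.4% TATAAA, 4.84% TAATTA, 3.29% AACAATG and 13.0% CAGCTG. A match is a description of letters, not of binding. GC content was 52.8% for Dbx1, 61.2% for Prdm12 and 41.6% for Prdm13, against a median of 52.4% over all windows. RefSeq windows were found for 9 of the 10 genes, all but Pax3.

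In the retinoic acid controls the 10 genes differed widely in level. Irx3 and Pax6, factors of the intermediate neural tube, were highest, at 85.4 and 70.3 FPKM and at 89.8 and 65.0 FPKM, and their values overlapped. Dbx1, which marks the progenitors of V0 interneurons, followed at 15.9 and 15.5 FPKM, clear of its neighbours in the order. Prdm13, a dorsal factor, stood at 11.8 and 4.42 FPKM, Prdm12, a factor of the V1 progenitor band, at 5.29 and 4.17 FPKM, and Nkx6-1, a ventral factor, at 2.11 and 5.93 FPKM. These 3 overlapped in turn, and Nkx6-1 also overlapped Pax3 at 3.91 and 2.49 FPKM. Pax7, like Pax3 a dorsal factor, lay at 1.65 and 1.66 FPKM, and Dbx2, the broader relative of Dbx1, at 0.719 and 0.684 FPKM. Olig2, which defines motor neuron progenitors, was at 0.0760 and 0.0723 FPKM and never above 0.118 FPKM in any of the 19 libraries. The cultures thus held dorsal and intermediate factors and Nkx6-1, while Olig2 lay near 0 in all of them.

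**Figure D1:**
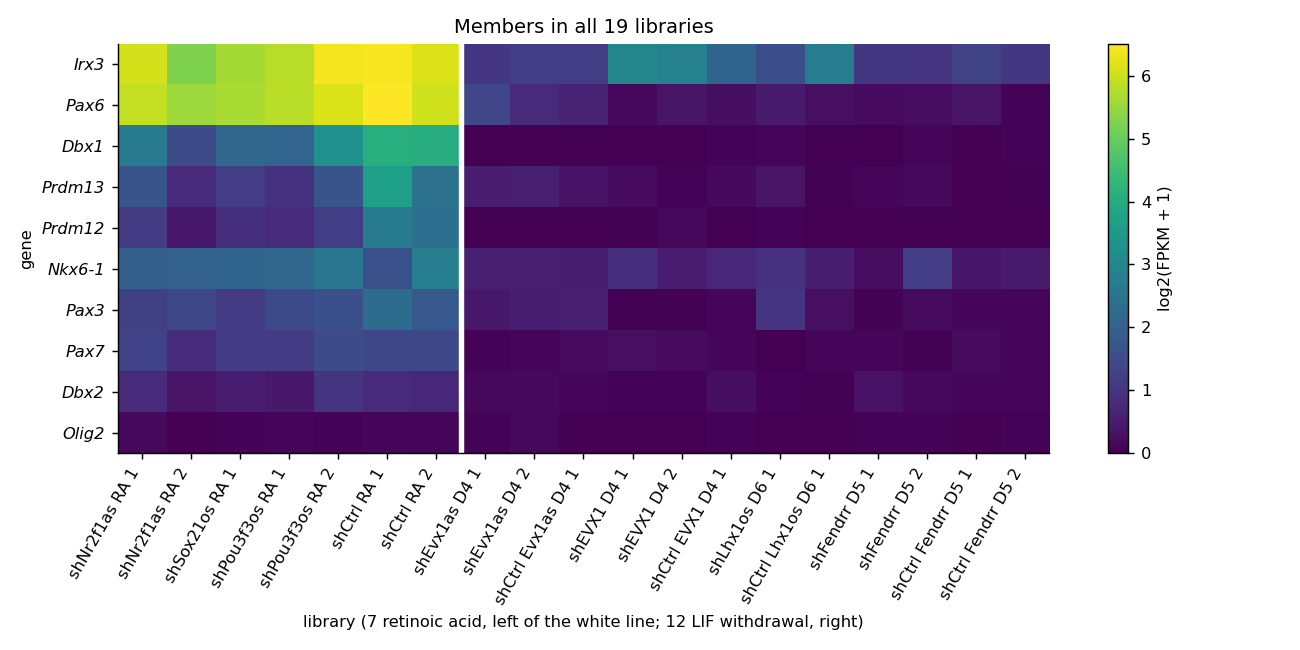
Level of the 10 genes as log2(FPKM + 1) (colour) in the 19 libraries (columns), with the 7 retinoic acid libraries left of the white line and the 12 LIF-withdrawal libraries right of it. Irx3 and Pax6 are bright in every retinoic acid library, and of the 10 genes only Irx3 passes 2 FPKM in a LIF-withdrawal library.

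The LIF-withdrawal libraries held little of these genes. Pax6 lay between 0.0386 and 1.60 FPKM in the 12 libraries, the highest being shEvx1as replicate 1, while in the retinoic acid libraries it was never below 45.5 FPKM. Irx3 was the exception, at 0.955 to 6.92 FPKM. It was at 6.92 and 6.19 FPKM in shEVX1 against 3.31 FPKM in the control, and at 1.98 FPKM in shLhx1os against 5.80 FPKM in the control. Dbx1 was listed at 0 in 8 of the 12 libraries and Prdm12 in 9, and neither passed 0.0979 FPKM. Prdm13 reached 0.493 FPKM, Pax3 1.02 FPKM, Pax7 0.194 FPKM, Dbx2 0.252 FPKM and Nkx6-1 1.27 FPKM. Every one of these highest values was below the lowest retinoic acid value of its gene.

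The 2 retinoic acid controls were tested against the 5 LIF-withdrawal controls on the log2(FPKM + 1) scale, on which changes of low genes are understated, with limma's moderated test and Benjamini-Hochberg adjustment over the 14942 entries that reached 1 FPKM in at least 2 libraries. Of the 10 genes, 8 passed this filter, and Dbx2 and Olig2 did not and are given by level alone. Irx3 reached 1 FPKM in 11 of the 12 LIF-withdrawal libraries, while the other 7 did so in at most 1 of them and passed through retinoic acid libraries. The 8 were called higher, where 30.3% of all entries were called higher. Since those 7 genes pass the filter only where they are high, the count adds nothing to the levels above. The log2 difference was 5.94 ± 0.20 (SE) for Pax6 (adjusted p = 1.57e-08), 4.48 ± 0.22 for Irx3, 4.04 ± 0.32 for Dbx1, 2.92 ± 0.33 for Prdm13 and 2.51 ± 0.19 for Prdm12. It was 1.79 ± 0.15 for Pax3, 1.66 ± 0.31 for Nkx6-1 (adjusted p = 0.000848) and 1.27 ± 0.16 for Pax7. Cell line, medium and retinoic acid differ together between these groups and cannot be told apart. Day differs in part as well, since the retinoic acid controls are at day 4 and the LIF-withdrawal controls at days 4, 5 and 6. P-values here and below rest on a spread pooled over the groups of all 19 libraries, and this spread may be technical. Genes at or near 0 in LIF withdrawal, such as Dbx1 and Prdm12, vary little there. For them the pooled spread can understate that between retinoic acid libraries.

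Within the retinoic acid cultures, Dbx1, Prdm12 and Prdm13 were the genes of the 10 that stood furthest below the controls in the knockdowns. Dbx1 was at 5.34 and 1.82 FPKM in shNr2f1as, 3.44 FPKM in shSox21os and 3.32 and 8.86 FPKM in shPou3f3os, against 15.9 and 15.5 FPKM in the controls. The 5 knockdown libraries spread over a wide range, yet each lay below both controls, which were almost equal. In bulk RNA, fewer cells of a type and less RNA per cell cannot be told apart. The log2 change was -1.98 ± 0.38 in shNr2f1as (adjusted p = 0.0463), -1.91 ± 0.47 in shSox21os (adjusted p = 0.178) and -1.35 ± 0.38 in shPou3f3os (adjusted p = 0.0796). Dbx1 thus passed the test in shNr2f1as and missed it in shSox21os and shPou3f3os, which does not show that the knockdowns differ. The call in shNr2f1as was lost without shNr2f1as replicate 2 (log2 change -1.40, adjusted p = 0.147), without control replicate 1 (adjusted p = 0.0671) and without control replicate 2 (adjusted p = 0.0988). It held in 4 of 12 alternatives, whose adjusted p ran from 0.0222 to 0.184.

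Prdm12, a regulator of V1 interneurons and of pain-sensing neurons, was at 1.20 and 0.332 FPKM in shNr2f1as, 0.884 FPKM in shSox21os and 0.712 and 1.27 FPKM in shPou3f3os, against 5.29 and 4.17 FPKM in the controls. Every knockdown value lay far below both controls. Prdm12 fell in shNr2f1as (log2 change -1.73 ± 0.23, adjusted p = 0.0170) and in shPou3f3os (-1.53 ± 0.23, adjusted p = 0.0243), with -1.60 ± 0.28 in shSox21os (adjusted p = 0.0836). In shNr2f1as the call held in 9 of 11 alternatives (adjusted p from 0.00667 to 0.163), and no single library ended it. In shPou3f3os it held in 6 of 11 and was lost without shPou3f3os replicate 1 (adjusted p = 0.160), without replicate 2 (adjusted p = 0.0757) and without control replicate 2 (adjusted p = 0.0623), in a range from 0.0170 to 0.160. The entry Gm13425 overlaps one end of Prdm12, and the table does not show whether strand was used to assign their reads. Gm13425 was at 0.580 and 0.584 FPKM in shNr2f1as, 0.300 FPKM in shSox21os and 0.430 and 1.12 FPKM in shPou3f3os, against 4.38 and 0.975 FPKM in the controls.

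Prdm13, which acts downstream of Ptf1a in the dorsal spinal cord, was at 2.20 and 0.730 FPKM in shNr2f1as, 1.29 FPKM in shSox21os and 0.936 and 2.24 FPKM in shPou3f3os, against 11.8 and 4.42 FPKM in the controls. All 5 knockdown libraries lay below both controls, which differed from each other more than those of Dbx1 and Prdm12 did. Prdm13 fell in shPou3f3os (log2 change -1.73 ± 0.39, adjusted p = 0.0464), with -1.82 ± 0.39 in shNr2f1as (adjusted p = 0.0584) and -1.87 ± 0.47 in shSox21os (adjusted p = 0.192). In shPou3f3os the call held in 4 of 11 alternatives (adjusted p from 0.0395 to 0.256) and was lost without shPou3f3os replicate 1 (adjusted p = 0.256), without replicate 2 (adjusted p = 0.140) and without control replicate 1 (log2 change -1.11, adjusted p = 0.0863). In shNr2f1as it passed without control replicate 2 (log2 change -2.44, adjusted p = 0.0273). Ptf1a itself was listed at 0 in 6 of the 7 libraries.

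**Figure D2:**
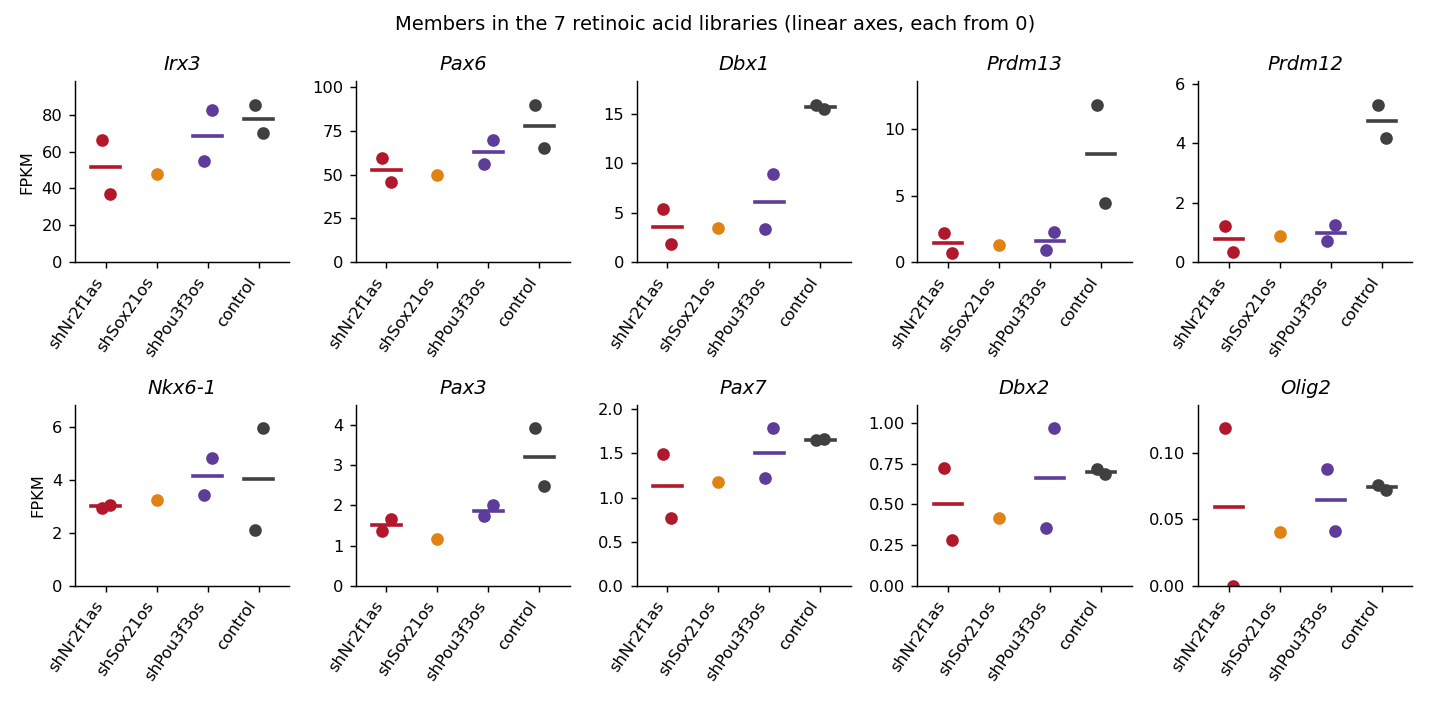
Level in FPKM of the 10 genes (1 panel each, linear axis from 0) in the 2 shNr2f1as, 1 shSox21os, 2 shPou3f3os and 2 control libraries with retinoic acid. Each point is a library and each bar the mean of a group of 2. Dbx1, Prdm13, Prdm12 and Pax3 have every knockdown point below both control points, while the control points of Nkx6-1, at 2.11 and 5.93 FPKM, enclose all 5 knockdown points.

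Counted over the genes tested, 2 of 8 were called lower in shNr2f1as (Dbx1 and Prdm12), where 0.254% of the 14942 entries were called lower and 0.676% in either direction. In shPou3f3os 2 of 8 were called lower (Prdm12 and Prdm13), where 0.716% of entries were called lower and 2.32% in either direction. In shSox21os, with 1 library, limma called none of the 8 and 0.0669% of all entries, and 4 of the 8 had an unadjusted p under 0.05, as 11.4% of all entries did. The median log2 change over the 8 genes was -0.68 in shNr2f1as, -0.80 in shSox21os and -0.41 in shPou3f3os, where that over all entries was 0.04, 0.03 and 0.04. In shNr2f1as 7 of the 8 genes lay below both controls without overlap, as did 20.8% of all entries. In shSox21os it was 7 of 8, beside 30.7% of entries, and in shPou3f3os 4 of 8, beside 21.6%. Fitted on the 7 retinoic acid libraries alone, or with 0.1 FPKM added in place of 1, no gene of the 8 was called in shNr2f1as or shPou3f3os. The 3 comparisons share both controls, so they are not independent of each other. Taking all 5 knockdown libraries against both controls, Dbx1, Prdm12, Prdm13 and Pax3 lay below without overlap, as did 12.6% of all entries, and none of the 8 lay above, as 15.8% of entries did.

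**Figure D3:**
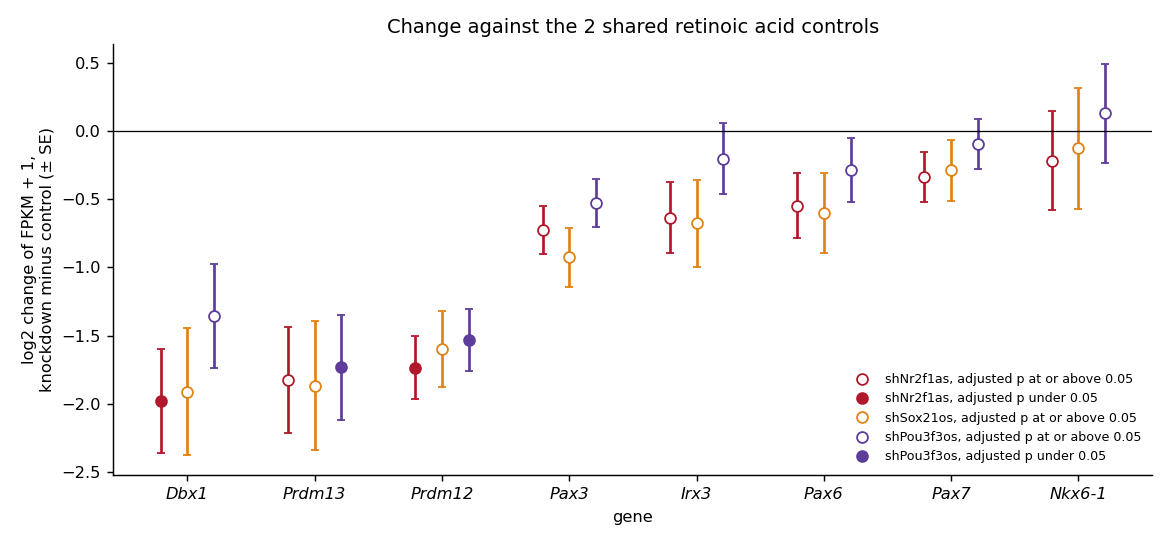
Log2 change of FPKM + 1, knockdown minus control, with its standard error from limma (vertical axis) for the 8 genes tested (horizontal axis), in shNr2f1as (red), shSox21os (orange) and shPou3f3os (purple). Filled points have an adjusted p under 0.05. Dbx1, Prdm13 and Prdm12 lie between -1.35 and -1.98 in all 3 knockdowns, and Nkx6-1 lies within 0.22 of 0.

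The dorsal factors Pax3 and Pax7 passed the test in no knockdown. Pax3, which is also a neural crest and muscle precursor factor, was at 1.36 and 1.65 FPKM in shNr2f1as, 1.18 FPKM in shSox21os and 1.74 and 2.00 FPKM in shPou3f3os, against 3.91 and 2.49 FPKM in the controls. The groups did not overlap, but no comparison passed: the log2 change was -0.73 ± 0.18 in shNr2f1as (adjusted p = 0.0734), -0.93 ± 0.22 in shSox21os (adjusted p = 0.164) and -0.53 ± 0.18 in shPou3f3os (adjusted p = 0.124). Pax7 was at 1.50 and 0.770 FPKM in shNr2f1as, 1.17 FPKM in shSox21os and 1.22 and 1.78 FPKM in shPou3f3os, against 1.65 and 1.66 FPKM in the controls. One shPou3f3os library stood above both controls, and the changes of -0.34 ± 0.18, -0.29 ± 0.22 and -0.10 ± 0.18 did not pass (adjusted p from 0.362 to 0.826).

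Pax6 and Irx3, the abundant intermediate factors, were lower in shNr2f1as and shSox21os by less than 1 unit on the log2 scale. Pax6 was at 59.2 and 45.5 FPKM in shNr2f1as, 50.0 FPKM in shSox21os and 55.8 and 69.9 FPKM in shPou3f3os, against 89.8 and 65.0 FPKM in the controls. Only shPou3f3os replicate 2 lay within the control range. The log2 change was -0.55 ± 0.24 in shNr2f1as (adjusted p = 0.256), -0.60 ± 0.29 in shSox21os (adjusted p = 0.466) and -0.29 ± 0.24 in shPou3f3os (adjusted p = 0.538). Irx3 was at 66.4 and 36.8 FPKM in shNr2f1as, 48.1 FPKM in shSox21os and 54.8 and 82.4 FPKM in shPou3f3os, against 85.4 and 70.3 FPKM in the controls. Here too shPou3f3os replicate 2 lay among the controls, and the changes of -0.64 ± 0.26, -0.68 ± 0.32 and -0.20 ± 0.26 did not pass (adjusted p = 0.227, 0.453 and 0.715). Pax6 overlaps the antisense entry Pax6os1, listed at 0 in 6 of the 7 libraries, and Irx3 overlaps D230002A01Rik, which never passed 2.25 FPKM.

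Nkx6-1, the ventral factor, showed no shared direction. It was at 2.94 and 3.05 FPKM in shNr2f1as, 3.25 FPKM in shSox21os and 3.42 and 4.83 FPKM in shPou3f3os, against 2.11 and 5.93 FPKM in the controls. The control values enclose all 5 knockdown values, so the sign of a change depends on which control is used: without control replicate 2 the log2 change was 0.36 in shNr2f1as and 0.45 in shSox21os, and with both controls it was -0.22 ± 0.36 and -0.13 ± 0.45, while in shPou3f3os it was 0.13 ± 0.36 with both and -0.45 without control replicate 1. Dbx2 was at 0.725 and 0.279 FPKM in shNr2f1as, 0.419 FPKM in shSox21os and 0.355 and 0.966 FPKM in shPou3f3os, overlapping its controls. Olig2 was at or below 0.118 FPKM and listed at 0 in shNr2f1as replicate 2.

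Levels were also set against Sox1 in the same library. Dbx1 amounted to 5.62 and 2.03% of the Sox1 FPKM in shNr2f1as, 4.13% in shSox21os and 2.99 and 9.31% in shPou3f3os, against 16.9 and 18.5% in the controls. Prdm12 lay between 0.370 and 1.33% in the knockdowns, against 5.63 and 4.97% in the controls, and Prdm13 between 0.812 and 2.36%, against 12.6 and 5.28%. Pax6 lay between 50.3 and 73.4% in the knockdowns, against 95.4 and 77.6% in the controls, so that relative to Sox1 it too separated the groups. In all, 5 of the 8 genes were below both controls in every knockdown library on this measure (Pax6, Pax3, Dbx1, Prdm12 and Prdm13), as were 12.7% of all entries. Irx3, at 41.0 to 86.6% against 90.7 and 83.9%, and Nkx6-1, at 3.09 to 5.07% against 2.25 and 7.08%, still overlapped.

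**Figure D4:**
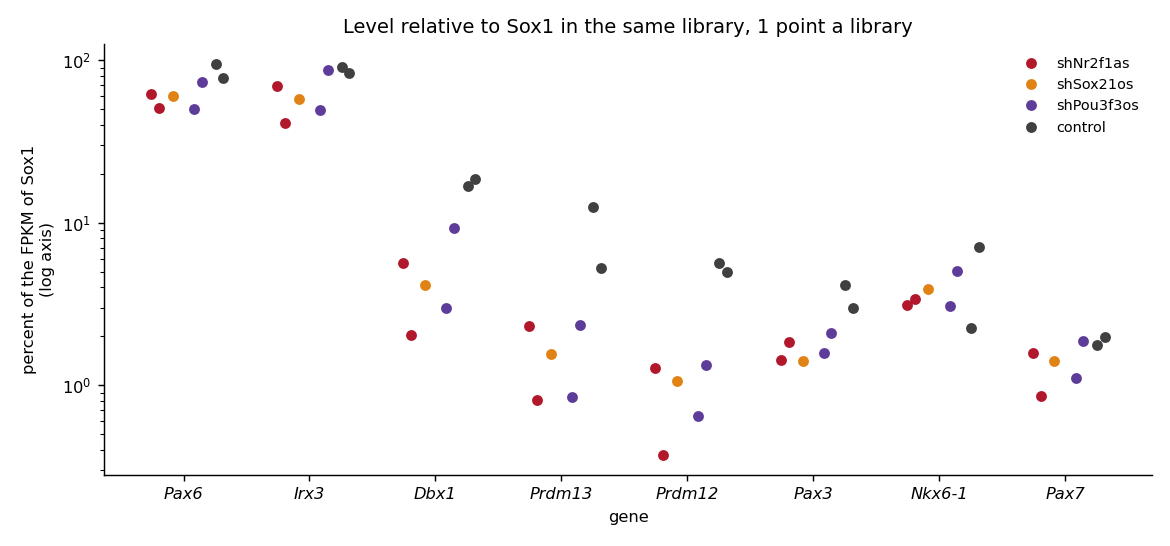
FPKM of 8 of the genes as a percentage of the Sox1 FPKM of the same library (log axis), 1 point a library, for shNr2f1as, shSox21os, shPou3f3os and the control. Pax6, Pax3, Dbx1, Prdm13 and Prdm12 have all 5 knockdown points below both control points of the same gene, and Nkx6-1 has its control points on either side of the rest.

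The knockdown libraries also differed within their groups. In shNr2f1as, replicate 2 was lower than replicate 1 for Dbx1, Prdm12, Prdm13, Irx3, Pax6, Pax7 and Dbx2, and higher for Pax3 and Nkx6-1. In shPou3f3os, replicate 2 was higher than replicate 1 for all of these 9 genes. The lowest retinoic acid value of Irx3, Pax6, Dbx1, Prdm13, Prdm12, Pax7 and Dbx2 was that of shNr2f1as replicate 2, which also had the highest Pou5f1 of the 5 knockdown libraries (194 FPKM). The highest knockdown value of Dbx1, Prdm12 and Prdm13 was that of shPou3f3os replicate 2, which had the lowest Pou5f1 of the 5 (44.6 FPKM). Other libraries did not follow this order. In shPou3f3os replicate 1, with Pou5f1 at 47.2 FPKM, each of these genes was lower than in shNr2f1as replicate 1, with Pou5f1 at 92.1 FPKM. Dbx1 was at 15.5 FPKM in control replicate 2, with Pou5f1 at 282 FPKM, and at 15.9 FPKM in control replicate 1, with Pou5f1 at 43.5 FPKM. The part of pluripotent cells in these values was not tested.

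Compared directly, with no control library in the contrast, shNr2f1as and shPou3f3os gave no call among the 8 genes by limma, where 0.00669% of all entries (1 entry) passed. None of the 8 had an unadjusted p under 0.05, against 820 entries in all. The log2 difference, shNr2f1as minus shPou3f3os, was -0.62 ± 0.38 for Dbx1 (adjusted p = 0.898), -0.43 ± 0.26 for Irx3 (adjusted p = 0.898), -0.20 ± 0.23 for Prdm12 and -0.09 ± 0.39 for Prdm13. A p above the threshold does not show that the knockdowns act alike.

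Other dorsal factors and signals were given by a list of 20 genes, of which 15 were tested. Neurog1, a proneural factor of dorsal interneuron progenitors, was called lower in shNr2f1as and in shPou3f3os. Neurog1 reached 1 FPKM only in the 2 retinoic acid controls. It was thus tested only because the controls are high, which favours a lower call. It had values of 0.242 and 0.0609 FPKM in shNr2f1as, with 1.95 and 1.61 FPKM in the controls (log2 change -1.27 ± 0.15, adjusted p = 0.0160). In shPou3f3os Neurog1 was at 0.134 and 0.223 FPKM (-1.24 ± 0.15, adjusted p = 0.0126). The call held without each library in turn in shNr2f1as (adjusted p from 0.000654 to 0.152 over 11 alternatives, 10 of them called), and in shPou3f3os it was lost without shPou3f3os replicate 1 (adjusted p = 0.131) and replicate 2 (adjusted p = 0.0757), with 8 of 11 called and a range from 0.000932 to 0.133. In shSox21os no gene of the list was called, with 6 of the 15 at an unadjusted p under 0.05 by limma, a threshold that 18.1% of all entries passed in shNr2f1as, 11.4% in shSox21os and 20.8% in shPou3f3os. The list's median change was 0.02, -0.58 and 0.13 in shNr2f1as, shSox21os and shPou3f3os. Olig3, a factor of the dorsal-most progenitors, was at 7.79 and 12.6 FPKM in shNr2f1as, 6.05 FPKM in shSox21os and 24.2 and 9.86 FPKM in shPou3f3os, against 8.81 and 8.06 FPKM in the controls, and did not pass. In the retinoic acid controls against the LIF-withdrawal controls, 11 of the 15 were called higher and 3 lower, with Zic1 (log2 difference 4.67) and Msx3 (3.15) higher and Msx1 (-3.69) and Msx2 (-3.74), targets of BMP signals, lower. Over all 14942 entries, 4520 were called higher and 4414 lower. Here and in the lists below, some genes passed the filter only through libraries where they are high. Msx3, at or below 0.546 FPKM in LIF withdrawal, is one. Such calls add nothing to the levels.

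Ventral factors and hedgehog signals, a list of 14 genes with 10 tested, had no call in any of the 3 knockdowns, with medians of 0.00, 0.29 and 0.06. At an unadjusted p under 0.05 there were 0, 0 and 1 of them by limma. Sonic hedgehog (Shh) never passed 0.546 FPKM in the retinoic acid libraries. The most abundant genes of the list, Gli2, a transducer of hedgehog signals, and Ptch1, the hedgehog receptor, were at 60.2 to 77.4 FPKM and 23.8 to 49.5 FPKM over the 7 libraries. Ptch1 and Nkx6-2, a relative of Nkx6-1, were lower in control replicate 1 than in replicate 2 (23.8 and 43.6 FPKM, 1.01 and 4.32 FPKM), as Nkx6-1 was. Against the LIF-withdrawal controls, 4 were called higher in the retinoic acid controls and 1 lower, with log2 differences of 2.25 for Gli2 and 2.04 for Sp8.

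Among 14 Iroquois, Pax, Prdm and other relatives of the 10 genes, 8 were tested. Pax2, a factor of several interneuron classes and of the midbrain-hindbrain boundary, fell in 2 knockdowns. It was at 4.83 and 2.90 FPKM in shNr2f1as, 4.32 FPKM in shSox21os and 3.51 and 3.79 FPKM in shPou3f3os, against 15.3 and 11.6 FPKM in the controls (log2 change -1.59 ± 0.20 in shNr2f1as with adjusted p = 0.0161, -1.63 ± 0.20 in shPou3f3os with adjusted p = 0.0126). In shNr2f1as no single library ended the call, which held in 10 of 12 alternatives (adjusted p from 0.00667 to 0.159). In shPou3f3os it held in 9 of 12 (0.00697 to 0.140) and was lost without shPou3f3os replicate 1 (adjusted p = 0.131) and replicate 2 (adjusted p = 0.0757). In the fit on the 7 retinoic acid libraries alone no entry at all was called in shNr2f1as or shPou3f3os, so that every list call named here and below was lost. No other gene of the list was called in a knockdown, none in shSox21os, and the medians were -0.36, -0.58 and -0.04. Irx5, Irx1 and Irx2 were abundant, at 25.0 to 50.3, 17.9 to 40.1 and 16.0 to 27.8 FPKM over the 7 libraries. Of the 8, 6 were called higher against the LIF-withdrawal controls and none lower. Pax2, Pax9 and Prdm16, at or below 0.171, 0.263 and 0.363 FPKM in LIF withdrawal, passed the filter only through retinoic acid libraries. Factors of spinal interneurons and motor neurons, 24 genes with 11 tested, had no call in a knockdown (medians -0.05, -0.17 and -0.22, no gene at an unadjusted p under 0.05 by limma), and none of the 24 reached 5 FPKM in a retinoic acid library. Lhx2 and Pou4f1 had the highest means, at 2.08 to 3.01 and 1.50 to 2.78 FPKM. Against the LIF-withdrawal controls 2 were called higher and 6 lower.

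The state of the cultures was followed with 9 more lists. Adjusted p ranges over the alternatives of each list call that follows reach from 0.000987 to 0.256. Of 18 early neural plate genes, all tested, Hes3 and Pou3f3 were called lower in shNr2f1as and Hes3 in shPou3f3os, none in shSox21os, and 17 were called higher against the LIF-withdrawal controls. Called or not, 8 of the 18 were higher and 10 lower in shNr2f1as (median log2 change -0.05). In shSox21os 4 were higher and 14 lower (-0.24), and in shPou3f3os 10 were higher and 8 lower (0.03). Hes3 was at 8.45 and 5.39 FPKM in shNr2f1as, 8.38 FPKM in shSox21os and 8.51 and 11.6 FPKM in shPou3f3os, against 19.9 and 29.0 FPKM in the controls. In shNr2f1as the call of Hes3 was lost without shNr2f1as replicate 2 (adjusted p = 0.0515) and control replicate 2 (0.0514), and that of Pou3f3 without the same libraries (0.0798 and 0.0641). In shPou3f3os the call of Hes3 was lost without shPou3f3os replicate 1 (0.198), replicate 2 (0.122) and control replicate 2 (0.202). Of 11 neuron genes, 9 were tested. In shNr2f1as 4 of them were higher and 5 lower (median log2 change -0.03). In shSox21os 5 were higher and 4 lower (0.01), and in shPou3f3os 1 was higher and 8 lower (-0.24). Stmn2 was the only neuron gene called. It rose in shNr2f1as (log2 change 1.59 ± 0.24, adjusted p = 0.0323) and shPou3f3os (1.09 ± 0.24, adjusted p = 0.0477). The first call was lost without shNr2f1as replicate 2 (adjusted p = 0.0874) and control replicate 2 (0.0710), and the second without shPou3f3os replicate 1 (0.244), replicate 2 (0.185) and control replicate 2 (0.256). No gene of 13 for the retinoic acid response (12 tested) and none of 17 for pluripotency and epiblast (17 tested) was called in a knockdown, and their sums lay at 889 to 1708 FPKM and 525 to 1230 FPKM in the knockdowns, against 2183 and 1394 FPKM and against 429 and 1289 FPKM in the controls. At an unadjusted p under 0.05, limma had 4, 1 and 6 retinoic acid genes and 0, 1 and 0 pluripotency genes in shNr2f1as, shSox21os and shPou3f3os, where 18.1, 11.4 and 20.8% of all entries were past it. The median log2 change of the pluripotency genes was 0.49, 0.65 and -0.74 in the same order, and that of the retinoic acid genes -0.40, -0.04 and -0.20. The most abundant genes of these lists were Crabp2, a retinoic acid binding protein gene, at 662 to 1375 FPKM in the knockdowns, against 1904 and 1034 FPKM in the controls, and Lin28a, an RNA-binding protein gene of stem and early progenitor cells, at 229 to 287 FPKM in the knockdowns, against 215 and 194 FPKM in the controls. Stra6, a retinol transporter gene, lay at 62.7 to 114 FPKM in the knockdowns, against 52.6 and 44.1 FPKM in the controls. Dppa5a, a pluripotency gene, lay at 59.5 to 196 FPKM in the knockdowns, against 61.2 and 218 FPKM in the controls. Rarb, the retinoic acid receptor gene that retinoic acid induces, was at 7.87 to 19.3 FPKM in the knockdowns, against 23.5 and 10.7 FPKM in the controls. Against the LIF-withdrawal controls, 11 retinoic acid genes were called higher and 1 lower, 1 pluripotency gene higher and 10 lower, and 6 neuron genes higher and 3 lower.

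Markers of other cell types gave single calls. Pax3 and Pax7 also mark neural crest and muscle precursors. The neural crest list (11 genes, 10 tested) summed to 44.5 to 94.7 FPKM in the knockdowns, against 104 and 57.5 FPKM in the controls, much of it Ednrb, with Sox10, which defines the crest, at or below 0.707 FPKM. Its 1 call was Twist1, lower in shPou3f3os (-0.91 ± 0.17, adjusted p = 0.0333) and lost without shPou3f3os replicate 1 (0.160), replicate 2 (0.199) or control replicate 2 (0.124). Paraxial mesoderm and muscle genes (9, of which 4 were tested) summed to 18.0 to 41.9 FPKM in the knockdowns, against 22.0 and 40.4 FPKM in the controls, with Meox1 at 11.6 to 29.6 FPKM and Tcf15 at 4.33 to 25.0 FPKM over the 7 libraries and the muscle factor Myf5 at or below 0.0495 FPKM, and none was called. Primitive streak and mesendoderm genes (8, all tested) summed to 2.79 to 14.2 FPKM in the knockdowns, against 4.60 and 5.28 FPKM in the controls, with no call, and T (Brachyury), which defines the streak, was at 0.637 to 5.63 FPKM and Gata4 at 0.987 to 2.40 FPKM over the 7 libraries. Of 10 endoderm genes, 8 were tested. In shNr2f1as 3 of them were higher and 5 lower (median log2 change -0.36). In shSox21os 3 were higher and 5 lower (-0.16), and in shPou3f3os 4 were higher and 4 lower (-0.01). The only endoderm gene called was Dab2, higher in shNr2f1as (1.46 ± 0.25, adjusted p = 0.0401) and shPou3f3os (1.42 ± 0.25, adjusted p = 0.0275). The first was lost without shNr2f1as replicate 1 (adjusted p = 0.0805), replicate 2 (0.114) or control replicate 2 (0.0581), and the second without shPou3f3os replicate 1 (0.162), replicate 2 (0.117) or control replicate 2 (0.112). Surface ectoderm and epithelium genes (8, of which 7 were tested) summed to 157 to 295 FPKM in the knockdowns, against 109 and 136 FPKM in the controls. Of these 8 genes 4 (Krt8, Krt18, Cldn6 and Trp63) lay above both controls in all 5 knockdown libraries, as did 15.8% of all entries tested. Trp63, at or below 0.235 FPKM in the 7 libraries, was not itself tested. Krt19, Epcam, Tfap2c and Cdh1 overlapped the controls. The list's median log2 change was 1.09 in shNr2f1as, 0.79 in shSox21os and 0.55 in shPou3f3os, and Cldn6 was called higher in shNr2f1as (1.85 ± 0.34, adjusted p = 0.0433), a call lost without shNr2f1as replicate 1 (0.0918), replicate 2 (0.136) or control replicate 1 (0.0663). No gene of these 5 lists was called in shSox21os. The part of such cells in the values of the 10 genes was not tested. Against the LIF-withdrawal controls, all 8 streak genes and 6 epithelium genes were called lower, 4 crest genes higher and 5 lower, 1 muscle-list gene higher and 2 lower, and 3 endoderm genes higher and 3 lower.

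For the 6 of the 10 genes that reached 5 FPKM in a retinoic acid library, the named genes with the nearest profile over these 7 libraries were found among 8210 entries, by the root mean square difference of log2(FPKM + 1) after each profile's own mean was subtracted. Nearest to Prdm12 were Pax2 (0.14), Serpinf1 (0.21) and Hoxb4 (0.24). Pax2 lay at a median of 3.79 FPKM over the knockdowns against 15.3 and 11.6 FPKM in the controls, and Hoxb4 at 8.81 FPKM against 26.2 and 20.6 FPKM. Dbx1 had Foxe3 (0.26), Hoxc4 (0.26) and Hoxb5 (0.27) nearest, and Hoxc4 was at a median of 11.9 FPKM over the knockdowns against 34.6 and 24.9 FPKM in the controls. Prdm13 had the netrin receptor gene Unc5a (0.26), its relative Prdm12 (0.29) and Foxe3 (0.33). Irx3 was nearest to Ccnd2, a cyclin (0.08), to its relative Irx1 (0.12) and to the Notch effector Hes5 (0.13), and Pax6 to Sdc1 (0.06), Nav1 (0.07) and Nudt2 (0.08). For Nkx6-1 these were Cxx1c (0.18), Med30 (0.19) and Aamdc (0.20). Cxx1c and Aamdc, like Nkx6-1, were lowest in control replicate 1 (3.17 and 4.34 FPKM) and highest in control replicate 2 (6.04 and 7.87 FPKM). These profiles are a description over 7 libraries that share their controls.

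The table places the 10 genes on 8 chromosomes. Its positions mostly do not match GRCm38. They are given as mm9, the other build the submitters name, but were not compared with it. Dbx1 lies at chr7:56886869-56892205, Prdm12 at chr2:31495557-31511315 and Prdm13 at chr4:21604627-21613110. Pax6 lies at chr2:105509053-105537521, Irx3 at chr8:94322410-94325553, Nkx6-1 at chr5:102088216-102093730 and Olig2 at chr16:91225795-91228922. Pax3 spans chr1:78097842-78193711, Pax7 spans chr4:139293996-139388883 and Dbx2 spans chr15:95453994-95485202. Prdm12 and Pax6, and likewise Prdm13 and Pax7, share a chromosome but lie far apart on it.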

How the data were processed

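Polyadenylated RNA was made into libraries with a stranded kit, per the labels' protocols. The authors deposited 1 table of FPKM values for 19 libraries, and CASAVA and TopHat2 2.0.11 and the builds mm10 and mm9 are named per the submitters' processing notes. No source used here names the quantifier, the annotation or the use of strand. Of 21450 symbols matched to RefSeq, 4.75% started within 1000 bp of their GRCm38 position and 116 entries lay on random chromosomes, so positions are given as mm9, with starts moved to 1-based counting.

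From these values, log2(FPKM + 1) was fitted with limma 3.58.1 in R 4.3.3, with 12 group means over all 19 libraries (7 residual degrees of freedom) and eBayes with a mean-dependent prior. Testing covered the 14942 entries reaching 1 FPKM in 2 or more libraries, two-sided, with Benjamini-Hochberg adjustment over all of them and a threshold of 0.05. The lone library of a group takes its spread from the remaining groups. The fit was tested on simulated data. The 10 genes and all lists were chosen with earlier results of these data known. Genes named from lists were the called ones with the largest change or, where none was called, the 2 most abundant. Sox1 and Pou5f1 were named for culture state and nearest profiles as described. Some list genes (Olig3, Ptf1a, Shh, Nkx6-2, Rarb, Sox10, Myf5, Ednrb and the Irx relatives), Krt8, Krt18, Trp63, Nr2f1, Pou3f3os and entries overlapping the 10 genes lie outside that rule and were picked with their values known. Alternatives were other pseudocounts, filters, scalings, priors and sample sets, each library left out, and a replicate block. The result of 1 list gene is not reported here.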

Additional observations from a re-analysis of the deposited data

How the results depend on the processing

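Direction held in most alternatives: of the log2 changes recomputed for single genes, 435 kept their direction and side of the threshold, 22 lost their call, 2 gained one and 12 changed sign. The 435 include changes not called in the main fit and the contrast with LIF withdrawal, where every call held. All 22 losses were of knockdown calls. In shNr2f1as the call held in 4 of 12 alternatives for Dbx1 and in 9 of 11 for Prdm12. In shPou3f3os it held in 6 of 11 for Prdm12 and in 4 of 11 for Prdm13. With 0.1 FPKM added in place of 1, 0 of the 10 genes were called in shNr2f1as and 0 in shPou3f3os. With a filter of 5 FPKM, which leaves Pax6, Dbx1 and Irx3 to be tested, 1 was called in shNr2f1as, 0 in shPou3f3os and 3 against LIF withdrawal. With no filter 1 was called in each of shNr2f1as, shSox21os and shPou3f3os, with 47, 216 and 161 entries in all, and 18 entries between shNr2f1as and shPou3f3os. Fitted on the 7 retinoic acid libraries, 0 of the genes were called in shNr2f1as and shPou3f3os, with 0, 4 and 0 entries in shNr2f1as, shSox21os and shPou3f3os and 0 between shNr2f1as and shPou3f3os, where limma had 2544, 1589, 2914 and 714 entries at an unadjusted p under 0.05. With a prior without trend 1 gene was called in shNr2f1as, with 54 entries, and 1 in shPou3f3os. Rescaling to the same total gave 348 higher and 76 lower entries in shPou3f3os, against 239 and 107. Equal replicate numbers did not pair the libraries (correlations of deviations 0.30, -0.05 and -0.02). With the replicate block 1 gene was called in shNr2f1as, 17 entries passed in shSox21os, and Nkx6-1 changed sign there (0.14). Leaving out 1 library at a time gave 1 to 2 genes and 43 to 391 entries in shNr2f1as, 29 to 186 entries in shSox21os, 0 to 1 genes and 0 to 1240 entries in shPou3f3os, and 1 to 5 entries between shNr2f1as and shPou3f3os. Over these, Nkx6-1 ran from -0.80 to 0.36 in shNr2f1as, -0.71 to 0.45 in shSox21os and -0.45 to 0.71 in shPou3f3os, where Pax7 ran from -0.26 to 0.068 and Irx3 from -0.49 to 0.087. Between shNr2f1as and shPou3f3os, Pax7 ran from -0.49 to 0.0069, Prdm12 from -0.56 to 0.16 and Prdm13 from -0.54 to 0.35. The cause of these changes was not tested. Groups of 1 or 2 libraries and unknown depth limit all values.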
